A study of Mus musculus with 10 samples.

Results

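Interleukin-17C (IL-17C), its receptors and the first steps of IL-17 signalling were followed through 10 RNA sequencing libraries of mouse skin. The set holds 10 genes of the 24358 in the count tables, each found by its gene symbol: the transgene product Il17c, the related ligand Il17b, the receptor genes Il17re, Il17ra, Il17rc, Il17rb and Il17rd, the adaptor gene Traf3ip2, and the regulators Nfkbiz and Zc3h12a. All 10 had counts in every library. Il17c was by far the most abundant of them and the most variable, and Il17re, Il17rc, Il17rb and Traf3ip2 spanned at most 2.37-fold between libraries. None of the 10 passed an adjusted p of 0.05 in edgeR's test in any of the 6 comparisons, of which Il17b entered 5. DESeq2, in 1 of them, called Il17b and Il17c together with 12.6% of all genes. Il17b reached 10 counts in 5 lesional and 0 uninvolved libraries, so it entered that test only through the group where it was high.

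The libraries came from full-thickness dorsal skin of 5 C57Bl/6 mice, and each mouse gave 1 lesional and 1 uninvolved biopsy. Mice 2392 and 2465 carry the genotype label IL-17C+KO, and mice 2237, 2275 and 2296 the label IL-17C+. Every mouse carries the IL-17C transgene, and no library of a mouse without it was analysed here, so the uninvolved biopsies are transgenic skin too. The animals were 10 or 14 weeks old, with no age given for a single mouse, so age and genotype cannot be told apart. The labels do not name the promoter that drives the transgene. The title of the series names IL-6 as the gene absent from the knockout mice, but the counts of Il6 go against that label. In lesional skin Il6 had 315 counts (mouse 2392) and 300 counts (2465) in the libraries labelled IL-17C+KO, against 26 (2237), 18 (2275) and 69 (2296) counts in those labelled IL-17C+. Uninvolved skin had 71 and 55 counts of it under IL-17C+KO, against 9, 4 and 6 counts under IL-17C+. Counts summed over a gene do not show which exons were read, so the genotypes are used below as labels only. Library totals ran from 21056850 to 31072491 counts, and the 3 counts that a gene listed at 0 may still hold stood for 0.0966 to 0.142 CPM (counts scaled to library size). All 9 basal keratinocyte markers were detected in every library, and skeletal muscle markers, from the muscle sheet beneath the skin, summed to 754 to 6604 CPM in lesional and 7195 to 46923 CPM in uninvolved libraries. In such bulk samples, fewer cells of a type and less RNA per cell cannot be told apart.

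IL-17C is a cytokine that epithelial cells make and to which they also respond. It signals through a receptor made of IL-17RE, which binds it, and IL-17RA, the chain shared by most receptors of the family. IL-17RC pairs with IL-17RA for IL-17A and IL-17F, and IL-17RB for IL-25. These receptors recruit the adaptor Act1, the product of Traf3ip2, which leads to NF-kappaB and MAP kinase activation and to the stabilisation of short-lived messenger RNAs of chemokines and antimicrobial proteins. In skin this pathway is best known for the keratinocyte response in psoriasis.

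The receptor genes Il17re and Il17rc lie on the same strand of mouse chromosome 6, with 668 bases between the end of the first and the start of the other in the GENCODE M21 annotation (GRCm38). RefSeq promoters (GRCm38.p6) matched 6 of the 10 genes by symbol, namely Il17c, Il17re, Il17rc, Il17rb, Il17rd and Zc3h12a. The 2 promoters of this neighbouring pair are shown because their genes encode the receptor chains for IL-17C and for IL-17A, and because both had overlapping levels in lesional and uninvolved skin. Each is 300 bases on the plus strand, chr6:113458521-113458820 for Il17re and chr6:113471205-113471504 for Il17rc, with 250 bases before the annotated start and 50 from it on. The single capital marks the start base in RefSeq. It lies 287 bases inside the GENCODE gene for Il17re and 28 bases inside it for Il17rc, so the annotations differ and the whole Il17re window falls within the GENCODE gene.
Il17re promoter: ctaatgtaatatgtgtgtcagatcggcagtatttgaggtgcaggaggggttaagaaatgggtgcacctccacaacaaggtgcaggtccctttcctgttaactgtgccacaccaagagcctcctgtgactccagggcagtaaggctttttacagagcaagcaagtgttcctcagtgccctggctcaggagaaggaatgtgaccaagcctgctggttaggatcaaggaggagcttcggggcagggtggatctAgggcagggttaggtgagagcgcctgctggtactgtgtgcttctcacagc
Il17rc promoter: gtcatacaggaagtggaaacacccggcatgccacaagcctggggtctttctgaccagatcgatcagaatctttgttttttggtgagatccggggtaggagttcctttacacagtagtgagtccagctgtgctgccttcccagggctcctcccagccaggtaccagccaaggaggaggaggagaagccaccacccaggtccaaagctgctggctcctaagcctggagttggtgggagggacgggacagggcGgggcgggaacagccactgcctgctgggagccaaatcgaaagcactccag
Searched on both strands, the kappaB consensus was in 0 of the 6 promoters, against 8.46% of 32851 mouse promoters of the same length. The AP-1 motif TGANTCA was in 1 of the 6, that of Il17rb, against 7.81% of all. A match describes these letters only, and its absence says nothing of the factor.

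Levels of different genes were set side by side per transcript length, as the FPKM values (fragments scaled to transcript length and library size) that the authors deposited. Averaged over the 10 libraries, Il17c stood at 13989 FPKM, with 975 in the lowest library and 27843 in the highest. Zc3h12a, Il17rc and Nfkbiz followed at 59.8, 48.2 and 35.7 FPKM. Il17c was thus above all other members in every library. Traf3ip2 averaged 10.6 FPKM, Il17ra 7.71 and Il17re 7.09. The last 2 are the chains of the IL-17C receptor and were not set apart in level, Il17ra being the higher in 4 of 10 libraries. Il17b, Il17rb and Il17rd were the lowest, at 1.18, 1.16 and 0.972 FPKM. Il17b was above Il17rb in 5 of 10 libraries, and these levels overlapped. On the CPM scale, the highest library exceeded the lowest 28.5-fold for Il17c, 9.52-fold for Il17b, 5.69-fold for Nfkbiz, and between 1.73-fold for Il17re and 3.34-fold for Il17ra for the other 7 genes.

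**Figure D1:**
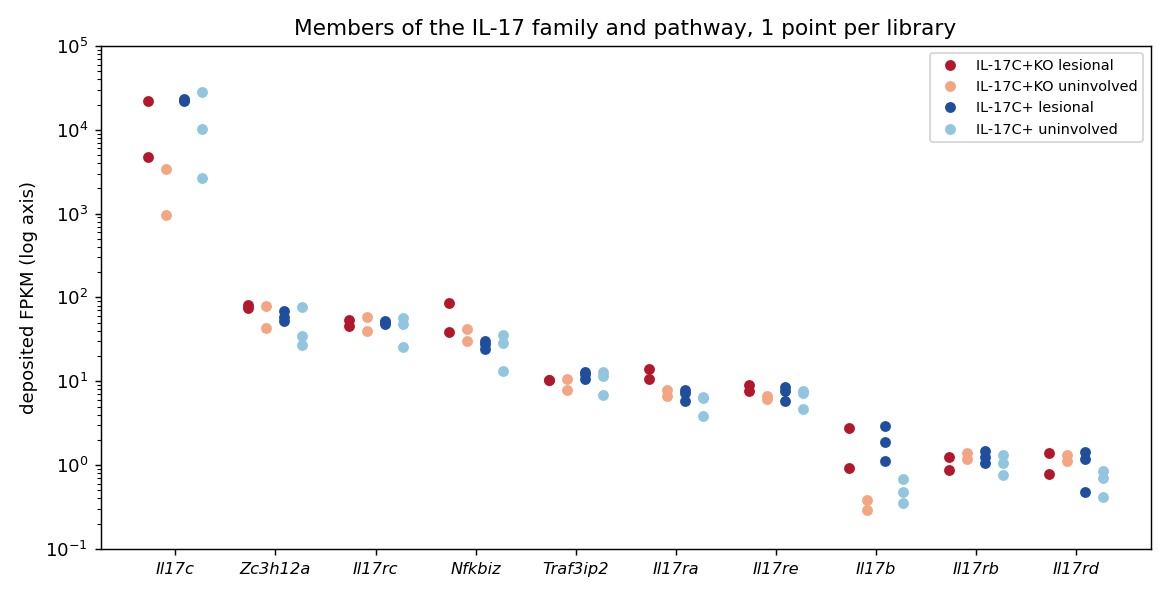
Deposited FPKM (log axis) of the 10 genes, ordered by mean level, with 1 point per library coloured by genotype label and skin type. Il17c lies between 975 and 27843 FPKM, above every other gene, while Il17ra and Il17re overlap near 7 FPKM.

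Il17c RNA, which joins reads of the transgene and of the endogenous gene (chromosome 8, 122422020 to 122423639, plus strand, GRCm38) in 1 count, made up 0.0529% to 1.39% of all counts. In lesional skin it reached 2346 CPM (mouse 2392) and 10833 CPM (2465) under the label IL-17C+KO, and 10563 (2237), 10791 (2275) and 12548 CPM (2296) under IL-17C+. In uninvolved skin it had 1939 and 533.8 CPM under IL-17C+KO, and 15196, 1415 and 5322 CPM under IL-17C+. Lesional biopsies of IL-17C+ mice were close to each other, whereas uninvolved ones of the same mice held both the highest value of all and 1 of the lowest. Lesional and uninvolved values overlapped. The lesional biopsy was the higher in 4 of 5 mice, by 0.27 (2392), 4.34 (2465), 2.93 (2275) and 1.24 (2296) on the log2 scale, while in mouse 2237 it was lower, at -0.52. The mean difference of 1.65 ± 1.98 (SD, n = 5 mice) gave p = 0.1875 in an exact two-sided sign-flip test, for which 0.0625 is the smallest p that 5 mice allow.

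Il17c differed between libraries also when set against keratinocyte RNA. Per count of Krt14, a keratin of basal keratinocytes, there were 0.431 (2392) and 1.34 (2465) counts of Il17c in lesional libraries labelled IL-17C+KO, and 2.93 (2237), 2.7 (2275) and 1.59 (2296) in those labelled IL-17C+. In uninvolved skin the ratio was 0.434 and 0.313 under IL-17C+KO, and 6.73, 0.602 and 1.04 under IL-17C+. Krt14 itself was higher in the lesional biopsy of each mouse, by 0.28 to 2.24 on the log2 scale. Per count of Krt5, another basal keratin, lesional libraries had 0.622 and 2.43 counts of Il17c under IL-17C+KO, and 2.76, 3.02 and 3.3 under IL-17C+. Uninvolved ones had 0.375 and 0.19 under IL-17C+KO, and 6.86, 0.36 and 0.978 under IL-17C+. Mouse 2392 was thus level per Krt14 but higher in lesional skin per Krt5. The uninvolved libraries of mice 2237 and 2465 were the highest and the lowest by either keratin, as they were in CPM. Summed over the 9 basal keratinocyte markers, the level ran from 5384 CPM in the uninvolved library of mouse 2237, where Il17c was highest, to 14239 CPM in the lesional library of mouse 2465.

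The 12 markers of the growing (anagen) hair follicle, an epithelial structure that keratinocytes form, divided the libraries in part as Il17c did. Their sum was 24.8 (2392) and 2441 CPM (2465) in lesional IL-17C+KO libraries, and 7896 (2237), 8795 (2275) and 1205 CPM (2296) in lesional IL-17C+ libraries. In uninvolved skin it was 50.3 and 37.9 CPM under IL-17C+KO, and 11373, 28.6 and 2179 CPM under IL-17C+. The 4 libraries with the lowest follicle sums, both of mouse 2392 and the uninvolved ones of mice 2465 and 2275, were also the 4 with the lowest Il17c. Above these 4 the order differed, since the lesional library of mouse 2296 had the second highest Il17c but a follicle sum of 1205 CPM. Within mice 2392 and 2296, the lesional biopsy had more Il17c and a lower follicle sum. No follicle marker was at 0 except 1 of the 12 in the lesional library of mouse 2392. The 6 melanocyte markers, all detected in every library, were lowest in the same 4 libraries, at 71.0 to 126 CPM, and highest in the uninvolved library of mouse 2237, at 1276 CPM. The part of follicle and pigment cells in the Il17c level was not tested.

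**Figure D2:**
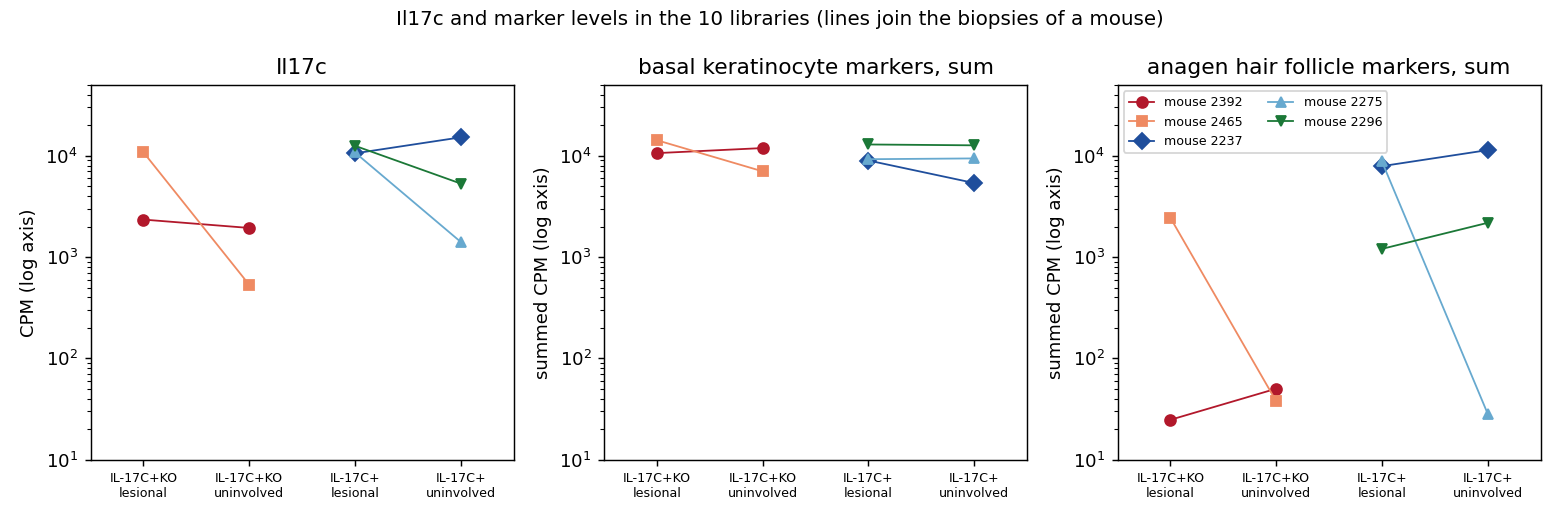
CPM of Il17c, summed CPM of 9 basal keratinocyte markers and summed CPM of 12 anagen hair follicle markers (log axes), with 1 point per library and a line joining the biopsies of a mouse. The follicle sums span 24.8 to 11373 CPM and the libraries lowest in them are those lowest in Il17c, while basal keratinocyte sums stay between 5384 and 14239 CPM.

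Il17b, which encodes a ligand of IL-17RB (chromosome 18, 61684887 to 61692538, plus strand, GRCm38), was scarce but was higher in lesional skin in every mouse. It had 13 (2392) and 33 (2465) counts in lesional IL-17C+KO libraries, and 32 (2237), 15 (2275) and 44 (2296) in lesional IL-17C+ libraries. Uninvolved libraries had 4 and 6 counts under IL-17C+KO, and 5, 7 and 8 under IL-17C+. Scaled, this was 0.490 to 1.74 CPM in lesional and 0.182 to 0.389 CPM in uninvolved libraries, and the groups did not overlap. Of all genes tested, 2.98% were apart in that direction, and 9.2% were higher in lesional skin in every mouse. Pooled over mice, 137 lesional against 30 uninvolved counts gave a ratio of 4.36, with an exact 95% interval of 2.92 to 6.7 that covers counting error only. The difference per mouse was 1.12 (2392), 2.32 (2465), 1.86 (2237), 0.88 (2275) and 1.96 (2296) on the log2 scale, and its mean of 1.63 ± 0.60 (SD, n = 5) gave p = 0.0625 in the exact two-sided sign-flip test, the smallest it can give. Il17b reached 10 counts in the 5 lesional libraries and in 0 uninvolved ones, so it entered the tests below only through the group where it was high. Of 13 marker lists, 4 separated the same libraries without overlap: fibroblast and activated keratinocyte markers were higher in lesional skin, and muscle and T cell markers were lower. Fibroblast markers (8 of 8 detected) summed to 6021 to 30172 CPM in lesional and 2709 to 4517 CPM in uninvolved skin, and activated keratinocyte markers (6 of 6) to 8790 to 23898 CPM in lesional and 1370 to 6979 CPM in uninvolved skin. Their part in the Il17b difference was not tested.

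The other ligands of the family were near the detection limit or level. Il17a, the T cell ligand best known from psoriasis, had at most 7 counts and Il17f at most 11 in any library. Il25 had at most 4. Il17d, the remaining ligand, had between 18 and 47 counts. T cell markers were also low, and 4 of the 13 listed were not used here. The remaining 9 summed to 10.4 to 30.8 CPM in lesional and 33.6 to 81.4 CPM in uninvolved libraries.

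Il17re, the gene of the IL-17C-binding chain (chromosome 6, 113458484 to 113470758), hardly varied. It had 23.9 (2392) and 19.9 (2465) CPM in lesional IL-17C+KO skin, and 20.8 (2237), 18.9 (2275) and 17.4 (2296) CPM in lesional IL-17C+ skin. Uninvolved skin had 18.8 and 19.4 CPM under IL-17C+KO, and 13.8, 22.1 and 20.7 CPM under IL-17C+. Lesional and uninvolved values overlapped, with the lesional one higher in 3 of 5 mice. Across a 28.5-fold span of Il17c, the level of its receptor chain thus stayed within a 1.73-fold span.

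Il17ra, the gene of the shared chain (chromosome 6, 120463247 to 120487559, plus strand), had its higher values under the label IL-17C+KO. In lesional skin it had 58.3 (2392) and 43.9 (2465) CPM under IL-17C+KO, against 28.9 (2237), 31.5 (2275) and 25.9 (2296) CPM under IL-17C+. In uninvolved skin it had 37.6 and 30.2 CPM under IL-17C+KO, against 17.5, 28.6 and 28.0 CPM under IL-17C+. The libraries labelled IL-17C+KO were the higher ones in both skin types, without overlap. Of all genes tested, 11.7% were so in lesional and 11.7% in uninvolved skin, and the share in both at once was not counted. The lesional biopsy was the higher in 4 of 5 mice, with a mean difference of 0.38 ± 0.36 on the log2 scale (SD, n = 5; exact two-sided sign-flip p = 0.125).

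Il17rc, the IL-17A receptor chain (chromosome 6, 113471427 to 113483140), was the most abundant receptor gene, between 67.6 and 160.5 CPM, and its lesional minus uninvolved differences ran from -0.35 to 0.81 on the log2 scale, 2 of them above 0. Il17rb, the IL-25 receptor chain (chromosome 14, 29996135 to 30008896, minus strand), had 1.69 to 3.14 CPM and was lower in lesional skin in 4 of 5 mice. Il17rd, a receptor of the family that also restrains FGF signalling (chromosome 14, 27038941 to 27107286, plus strand), had 6.94 (2392) and 12.2 (2465) CPM in lesional IL-17C+KO skin, and 10.02 (2237), 12.1 (2275) and 4.54 (2296) CPM in lesional IL-17C+ skin. In uninvolved skin Il17rd had 11.5 and 12.8 CPM under IL-17C+KO, above the 4.01, 8.12 and 6.57 CPM under IL-17C+. The labels overlapped in lesional skin for Il17rd but not in uninvolved skin, where 11.7% of all genes tested were apart in that direction.

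Traf3ip2, the gene of the adaptor Act1 (chromosome 10, 39612934 to 39655307), stayed within a 1.81-fold span. It had 30.2 (2392) and 29.9 (2465) CPM in lesional IL-17C+KO skin, just below the 34.6 (2237), 35.8 (2275) and 33.6 (2296) CPM of lesional IL-17C+ skin. Of all genes tested, 13.1% were apart in that direction in lesional skin. Uninvolved skin had 35.6 and 25.4 CPM under IL-17C+KO, and 22.0, 36.1 and 39.8 CPM under IL-17C+, which overlapped. Lesional was above uninvolved in 2 of 5 mice.

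Nfkbiz encodes IkappaB-zeta, a nuclear cofactor of NF-kappaB that is itself induced by IL-17 signals (chromosome 16, 55811375 to 55838899, minus strand). In lesional skin it had 146 (2392) and 315 (2465) CPM under IL-17C+KO, against 99.9 (2237), 108.5 (2275) and 98.0 (2296) CPM under IL-17C+. In uninvolved skin it had 183 and 124 CPM under IL-17C+KO, against 55.4, 115.5 and 141.5 CPM under IL-17C+. The labels overlapped in uninvolved skin but not in lesional skin, where 11.7% of all genes tested were apart in that direction. Between the biopsies of a mouse Nfkbiz had no shared direction, with log2 differences of -0.32 (2392), 1.34 (2465), 0.85 (2237), -0.09 (2275) and -0.53 (2296).

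Zc3h12a encodes Regnase-1, a nuclease that degrades many inflammatory messenger RNAs, that of Nfkbiz among them (chromosome 4, 125118423 to 125127840, minus strand). In lesional skin it had 211 (2392) and 231 (2465) CPM under IL-17C+KO, against 188 (2237), 161 (2275) and 161 (2296) CPM under IL-17C+. In uninvolved skin it had 265 and 138 CPM under IL-17C+KO, against 84.6, 107 and 232 CPM under IL-17C+. The labels were apart in lesional skin by less than the spread between uninvolved libraries of 1 label. Of all genes tested, 11.7% were apart in that direction in lesional skin. The lesional biopsy was the higher in 3 of 5 mice.

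Mouse 2237 contributed the upper end of many of these differences. Its uninvolved library held the lowest CPM of all 10 libraries for 8 of the 10 genes and the highest for Il17c, and it also held the highest follicle marker sum, 11373 CPM. Lesional minus uninvolved differences of this mouse were above 0 for every member except Il17c. The share of all genes that behaved so in this mouse was not counted, so neither trait can be called particular to the members. The part of library make-up in these values was not tested.

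**Figure D3:**
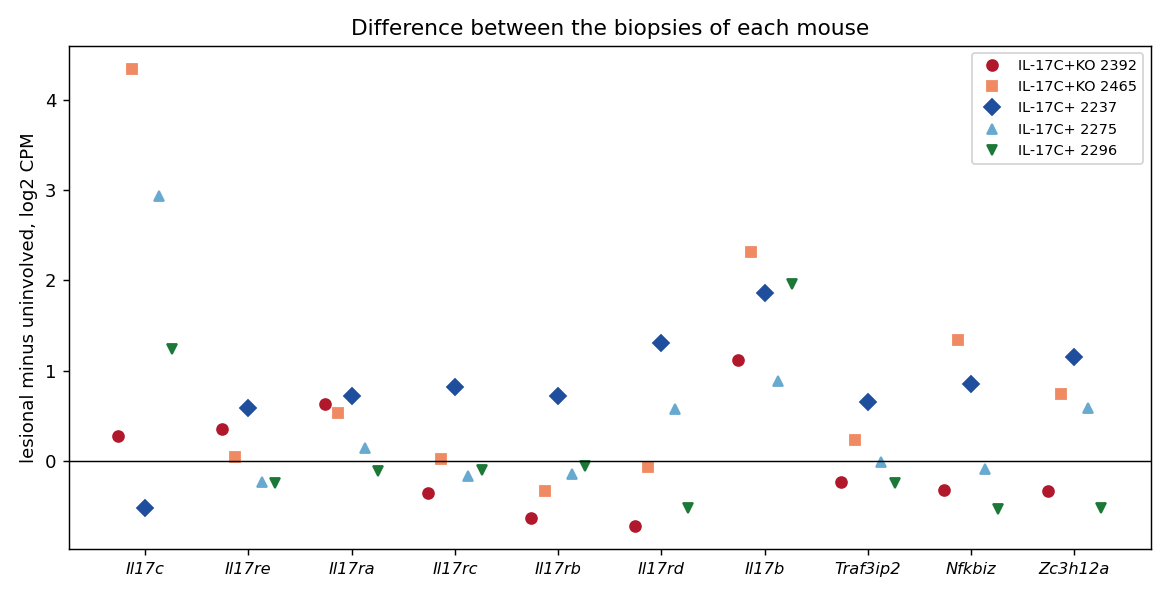
Lesional minus uninvolved difference in log2 CPM for each of the 10 genes, with 1 point per mouse and its genotype label in the legend. Only Il17b is above 0 in 5 of 5 mice, as are 9.2% of all genes tested, and mouse 2237 is above 0 for every member but Il17c.

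Lesional skin was compared with uninvolved skin over the 5 mice with edgeR's quasi-likelihood test with the mouse as a block and Benjamini-Hochberg adjustment over 16083 genes. The change tested was the mean of the lesional effects of the 2 labels, so each IL-17C+KO mouse weighed more than each IL-17C+ mouse. In this fit 21 genes passed an adjusted p of 0.05 (0.131%), 16 higher and 5 lower, and 0 of the 10 members did. At an unadjusted p under 0.05 stood 3169 genes (19.7%) and 1 member. That member was Il17b, with a log2 change of 1.95 ± 0.42 (SE, adjusted p = 0.0927). Il17c had 1.77 ± 0.84 (adjusted p = 0.31) and Il17ra 0.42 ± 0.20 (adjusted p = 0.313). The estimates of the other 7 lay between -0.15 ± 0.29 for Il17rb and 0.32 ± 0.31 for Zc3h12a, with adjusted p from 0.635 to 0.982. They were 0.12 ± 0.22 for Il17re, 0.01 ± 0.22 for Il17rc, 0.04 ± 0.32 for Il17rd, 0.07 ± 0.22 for Traf3ip2 and 0.30 ± 0.33 for Nfkbiz. The median over the members was 0.21, against -0.0034 over all genes tested. All 5 mice had a positive difference for 1 of 10 members and for 9.2% of genes, and all lesional libraries lay above all uninvolved ones for 1 of 10 members and for 2.98% of genes, Il17b in both. Without the mouse term 966 genes passed (6.01%; 416 higher, 550 lower) and 1 of 10 members, Il17b (2.05, adjusted p = 0.043). With DESeq2 2033 genes passed (12.6%; 988 higher, 1045 lower) and 2 of 10 members, Il17b (1.99, adjusted p = 0.00962) and Il17c (1.79, adjusted p = 0.0288), a share near that of all genes. Leaving out 1 mouse gave 0 to 303 genes past the threshold and 0 members. Without mouse 2237 the estimate was 0.12 for Zc3h12a and -0.29 for Il17rb.

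Within the label IL-17C+KO (2 mice), 2 genes passed edgeR's adjusted threshold (0.0124%) and 2166 the unadjusted one (13.5%), against 0 and 1 of the members. DESeq2 called many more genes within this label, a count given in the last section, but no member. Il17b had a log2 change of 2.11 ± 0.67 (adjusted p = 0.284), Il17c 2.32 ± 1.36 (0.517), Il17ra 0.60 ± 0.31 (0.471) and Nfkbiz 0.53 ± 0.52 (0.724). Within the label IL-17C+ (3 mice), 0 genes passed the adjusted threshold (0%) and 1031 the unadjusted one (6.41%), against 0 and 1 of the members in edgeR. DESeq2 called 247 genes (1.54%) and 0 members. Il17b had a log2 change of 1.80 ± 0.52 (adjusted p = 0.663), Il17c 1.21 ± 0.99 (0.836), Il17ra 0.24 ± 0.26 (0.864) and Nfkbiz 0.07 ± 0.41 (0.973). The lone member under an unadjusted 0.05 was Il17b in both.

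The difference between the lesional changes of the labels, IL-17C+KO minus IL-17C+, was tested in the same edgeR fit. It passed the adjusted threshold for 0 genes (0%) and the unadjusted one for 188 (1.17%), with 0 members at either. DESeq2 called 6 genes (0.0373%) and 0 members. The estimates were 1.12 ± 1.68 for Il17c, 0.36 ± 0.41 for Il17ra, 0.46 ± 0.66 for Nfkbiz and 0.31 ± 0.83 for Il17b on the log2 scale, each with an adjusted p of 1. The standard error for Il17c exceeded its estimate.

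The labels were then compared within each skin type, with 2 IL-17C+KO against 3 IL-17C+ libraries from separate mice. In lesional skin, 0 of 15691 genes (0%) passed edgeR's adjusted threshold and 1145 (7.3%) the unadjusted one, against 0 and 2 of the 10 members. DESeq2 called 213 genes (1.36%) and 0 members. The 2 were Il17ra, with 51.1 ± 10.2 CPM under IL-17C+KO and 28.8 ± 2.78 CPM under IL-17C+ (SD), and Nfkbiz, with 230.7 ± 119.6 CPM under IL-17C+KO and 102 ± 5.58 CPM under IL-17C+. Their log2 differences were 0.86 ± 0.20 for Il17ra (SE, adjusted p = 0.565) and 1.21 ± 0.34 for Nfkbiz (adjusted p = 0.577). Zc3h12a stood at 0.41 ± 0.17 (adjusted p = 0.692) and Il17c at -0.74 ± 0.65 (adjusted p = 0.866). All IL-17C+KO libraries lay above all IL-17C+ ones for 3 of 10 members (Il17ra, Nfkbiz and Zc3h12a) and for 11.7% of genes, and below them for 1 of 10 (Traf3ip2) and for 13.1% of genes. Endothelial markers, all 6 of 6 detected in every library, were apart in the same way as Il17ra, with sums of 351 to 388 CPM under IL-17C+KO and 142 to 233 CPM under IL-17C+. Melanocyte markers (6 of 6 detected) were apart the other way, as Traf3ip2 was, with 71.0 to 270.3 CPM under IL-17C+KO and 313 to 449 CPM under IL-17C+. Fibroblast marker sums overlapped, at 8894 to 30172 CPM under IL-17C+KO and 6021 to 13458 CPM under IL-17C+, as did the sums of 11 of the 13 lists. The part of these cells in the members' levels was not tested. Without mouse 2465 the difference was 0.51 for Nfkbiz and -2.27 for Il17c, and without mouse 2392 it was -0.02 for Il17c.

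In uninvolved skin, 0 of 15568 genes (0%) passed edgeR's adjusted threshold and 581 (3.73%) the unadjusted one, against 0 and 1 of the 9 members tested, Il17b being too low there. DESeq2 called 11 genes (0.0707%) and 0 members, and without mouse 2275 edgeR called 241 genes (1.57%) and 0 members. The 1 was Il17rd, with a log2 difference of 0.95 ± 0.39 (adjusted p = 0.849) and with 12.1 ± 0.922 CPM under IL-17C+KO and 6.23 ± 2.07 CPM under IL-17C+ (SD). Il17c had a difference of -2.58 ± 1.11 (adjusted p = 0.849), Il17ra 0.45 ± 0.33 and Nfkbiz 0.55 ± 0.44. Il17c averaged 1237 ± 994 CPM under IL-17C+KO and 7311 ± 7103 CPM under IL-17C+ (SD), and these libraries overlapped. All IL-17C+KO libraries lay above all IL-17C+ ones for 2 of 9 members (Il17ra and Il17rd) and for 11.7% of genes, and below them for 0 of 9 members and for 9.2% of genes. Endothelial marker sums were 304 to 345 CPM under IL-17C+KO and 105 to 252 CPM under IL-17C+, again apart. Schwann cell and nerve markers were apart in the same direction, at 533 to 779.7 CPM under IL-17C+KO and 229 to 456 CPM under IL-17C+, and melanocyte markers in the other, at 111 to 113 CPM under IL-17C+KO and 126 to 1276 CPM under IL-17C+. The other 10 of 13 lists overlapped, and the part of these cells in the Il17ra and Il17rd levels was not tested.

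**Figure D4:**
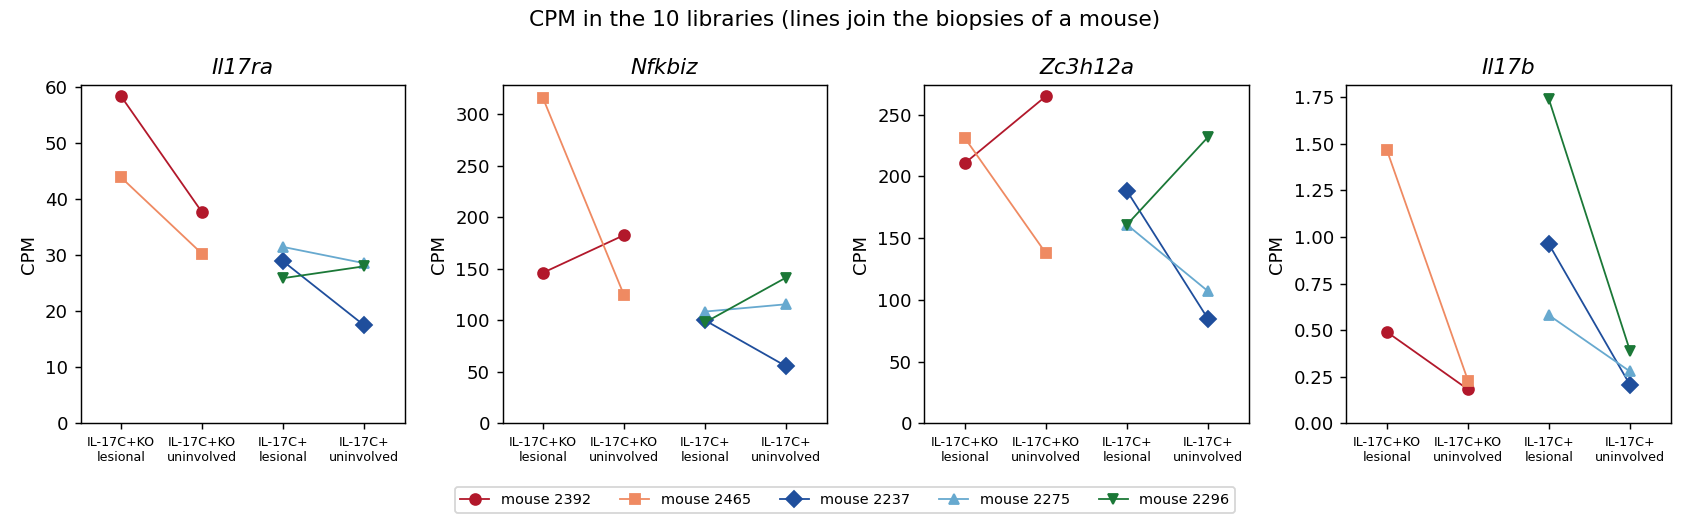
CPM of Il17ra, Nfkbiz, Zc3h12a and Il17b in the 10 libraries by genotype label and skin type, with 1 point per library and a line joining the biopsies of a mouse. Il17ra is higher under IL-17C+KO in both skin types, Nfkbiz and Zc3h12a in lesional skin, and Il17b is higher in the lesional library of every mouse. Of all genes tested, 11.7% are apart between labels in that direction in each skin type, and 9.2% are higher in lesional skin in every mouse. None of these differences passed an adjusted p of 0.05 in edgeR.

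Around the members, the wider pathway was read from lists by role, which were chosen with earlier results of these data known. Of 25 target genes of IL-17 signalling, such as chemokines and antimicrobial proteins, 23 were tested, and 3 rose in lesional skin over the 5 mice by edgeR's adjusted p, against 0.131% of all genes. The estimates were above 0 for 23 of 23, with a median log2 change of 3.41, against -0.0034 over all genes tested. Since the list was chosen with earlier results known, these counts are no test of a pathway response. The 3 were Cxcl5 (9.33 ± 0.48, adjusted p = 0.00786) and Cxcl3 (6.00 ± 0.46, adjusted p = 0.023), both neutrophil-attracting chemokines, and Il19 (5.34 ± 0.55, adjusted p = 0.0438), a cytokine of the IL-10 family. Each reached 10 counts in all 5 lesional libraries but in at most 1 uninvolved one (0 for Cxcl5), so they entered the test through the group where they were high, and the fitted changes depend on the prior count. Cxcl5 had 2184 (2392), 7954 (2465), 77 (2237), 81 (2275) and 621 (2296) counts in lesional skin and 0, 2, 2, 1 and 3 counts in uninvolved skin of the same mice. Without mouse 2465, 0 genes passed this threshold. Cxcl5 also passed within the label IL-17C+KO, with 12.3 on the log2 scale. Csf3, the neutrophil growth factor, had the next smallest p, with 4.76 ± 0.56 (adjusted p = 0.055). Neutrophil markers, 10 of 10 tested, summed to 2257 to 12742 CPM in lesional and 186 to 2501 CPM in uninvolved libraries. Over the 5 mice the estimates were above 0 for 9 of the 10. S100a8 and S100a9 belong both to this list and to the target list. They averaged 1978 and 3058 CPM in lesional IL-17C+KO libraries, where the list sums were 4510 (2392) and 6164 CPM (2465). The sum is thus not independent of the targets, and the part of neutrophils in these values was not tested.

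The lists between receptor and target held no gene past the adjusted threshold in any of the 6 comparisons. Over the 5 mice, the 18 adaptors and kinases had a median lesional log2 change of 0.09, 10 of 18 above 0, and 0 at an unadjusted p under 0.05, which 19.7% of all genes reached. The 11 transcription factors and cofactors had a median of 0.42, all 11 above 0 and 3 at the unadjusted threshold, not far from the share of all genes: Junb (1.02 ± 0.31, adjusted p = 0.147), Fos (1.77 ± 0.53, 0.147) and Cebpb (0.62 ± 0.21, 0.181). The 10 genes of messenger RNA stability had a median of 0.30, with Zfp36, which promotes messenger RNA decay, at 1.05 ± 0.37 (adjusted p = 0.195). The 9 feedback inhibitors had a median of 0.84, 7 above 0 and 4 at the unadjusted threshold, among them Socs3 (1.4 ± 0.33, adjusted p = 0.104) and Bcl3 (1.05 ± 0.35). In the lesional comparison of labels, 5 of these 9 inhibitors were at the unadjusted threshold, all higher under IL-17C+KO, against 7.3% of all genes. They included Tnfaip3, which encodes the ubiquitin-editing enzyme A20, at 2.84 ± 0.65 (adjusted p = 0.565), and Nfkbia, which encodes IkappaB-alpha, at 1.61 ± 0.42 (adjusted p = 0.577). In the 2 lesional IL-17C+KO libraries these genes averaged 164 ± 153 and 578 ± 351 CPM (SD), so the 2 libraries differed widely. At the same threshold 8 of 23 targets, 4 of 11 transcription factors and cofactors and 2 of 10 stability genes were also higher. The 8 targets include Il6, the gene used above to check the label. The 4 transcription factors and cofactors include the member Nfkbiz, already given above. Lower were 1 target and 1 of 18 adaptors and kinases. Since all these lists were chosen with earlier results known, none of their counts is a test of a pathway response.

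Genes with a similar pattern were ranked by the root mean square difference of log2 CPM over the 10 libraries, each gene centred on its own mean, among 12823 genes. Nearest to Il17c were Slco1a5 (0.494), Cdkn2a (0.529) and Tmprss7 (0.587), where Il17c itself varied by 1.57 about its mean and the median gene differed from it by 1.62. Cdkn2a had 115 counts in the uninvolved library of mouse 2237 and 1 in that of mouse 2465, the libraries with the highest and the lowest Il17c. Nearest to Il17re were Galnt4 (0.0746), Dnm1l (0.0872) and Smg9 (0.094), around a gene that varied by 0.202 only. Near to Nfkbiz were Arid5a (0.205) and Col23a1 (0.245), against 0.746 for the median gene. Arid5a, which encodes an RNA-binding protein that stabilises inflammatory messenger RNAs, had 28.6 (2392) and 51.8 (2465) CPM in lesional IL-17C+KO skin, against 17.6 (2237), 18.6 (2275) and 25.0 (2296) CPM in lesional IL-17C+ skin. These likenesses rest on 10 libraries of 5 mice and share their depth and make-up.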

How the data were processed

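The 10 libraries were read on an Illumina Genome Analyzer IIx, per the labels' protocols. The submitters' processing notes name cutadapt 1.6, TopHat2 2.0.12, HTSeq, Cufflinks 2.2.1 and the mm10 build, without order or settings. The deposited tables hold, per the file headers, a count and an FPKM per gene symbol. The deposited count values are whole numbers with a different total in each library and were taken as raw. The deposited FPKM values are normalised to length and depth by the authors and served to compare levels between genes and for 1 alternative test. Strand setting and annotation: not given in the sources used here.

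The tests on counts used edgeR 4.0.16 in R 4.3.3: filterByExpr with the groups, TMM scaling, robust quasi-likelihood fits and Benjamini-Hochberg adjustment over all genes tested, at a threshold of 0.05. For lesional against uninvolved skin, a single fit held all 10 libraries, a term for each mouse (the block) and a lesional effect for each label. The change over the 5 mice is the unweighted mean of these 2 effects. Labels were compared within each skin type. Standard errors come from the change and its F statistic. CPM are TMM-scaled, and log2 CPM has a prior count of 2. Scripts were tested on simulated data.

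Mouse numbers in the labels pair the biopsies, as the design text states. Deviations of the 2 biopsies of a mouse from their group means correlated at -0.104 in both IL-17C+KO mice, where the value is the same by construction, and at -0.183, 0.0273 and -0.156 in IL-17C+ mice.

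All members are named, Il6 as the check of the label, every listed pathway gene past the threshold, up to 4 of the smallest p per list, and the 3 genes nearest in pattern (mean of at least 2 CPM) to Il17c, Il17re and Nfkbiz, of which 1 is not reported here. Members and lists were chosen with earlier results of these data known. Alternatives were RLE scaling, no filter on low counts, DESeq2 1.42.0, limma-voom (limma 3.58.1), limma on log2(FPKM + 0.1), no block, and leaving out each mouse. Coordinates are from GENCODE M21.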

Additional observations from a re-analysis of the deposited data

How the results depend on the processing

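The 21 genes past the adjusted threshold in lesional skin over the 5 mice became 192 without the filter on low counts, 133 with limma-voom, 165 with limma on log2(FPKM + 0.1), 2033 with DESeq2 and 966 with no replicate block. Leaving out 1 mouse gave 0 (without 2465) to 303 (without 2237). Within the label IL-17C+KO, the 2 genes became 5 without the filter, 1157 with DESeq2, 0 with no replicate block and 0 to 11 without 1 mouse. Where edgeR called 0 genes, DESeq2 called 247 within IL-17C+, 6 for the difference of responses, 213 between labels in lesional and 11 in uninvolved skin, the missing filter gave 1 in lesional skin, and leaving out 1 mouse gave 0 to 241 in uninvolved skin.

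Of the members, 2 passed over the 5 mice with DESeq2 (Il17b and Il17c) and 1 with no replicate block (Il17b). The log2 change of Il17rc over the 5 mice was then -0.0312, and that of Nfkbiz in IL-17C+ mice -0.0359. The block changed no other call of a member. Leaving out 1 mouse turned the sign of several small estimates. Over the 5 mice they ran from -0.0188 to 0.205 for Il17re, -0.145 to 0.0993 for Il17rc, -0.181 to 0.291 for Il17rd, -0.0615 to 0.178 for Traf3ip2 and -0.111 to 0.705 for Nfkbiz. With no change of sign, Il17c ran from 0.757 to 2.78, Il17rb from -0.292 to -0.0769 and Zc3h12a from 0.0531 to 0.574. Nfkbiz ran from -0.291 to 1.34 within IL-17C+KO and from -0.321 to 0.401 within IL-17C+. For the difference of responses, Il17c ran from -0.905 to 3.13, Nfkbiz from -0.36 to 1.27 and Il17b from -0.37 to 0.842. The causes were not tested. Il17b kept a positive lesional change over the 5 mice, between 1.62 and 2.22, with any 1 mouse left out. RLE scaling left all member calls and directions as they were. With 2 and 3 mice per label, without 1 mouse an IL-17C+KO arm of 1 is assumed to vary like the others. In the change over the 5 mice, such a lone mouse also weighs as much as all IL-17C+ mice together.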
